A study of Mus musculus with 26 samples.

Results

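Genes for protein folding in the endoplasmic reticulum (ER) and for the unfolded protein response were followed across 13 sorted mouse cell groups of a study of the transcriptional repressor BLIMP1. The set was fixed by gene name, with earlier results of these data known, and held 41 members. All of them were found with a value in every library, of 25146 genes with complete values. By role, 11 were chaperones and co-chaperones, 7 served oxidative folding, 9 served ER-associated degradation (ERAD), 10 served entry into the ER and glycosylation, and 4 were sensors or transcription factors of the response. Each group had 2 libraries of 3' RNA-seq, amplified from 1 ng of RNA. Whether the libraries of a group stem from different mice or culture wells is not in the labels, and the p-values therefore cover the spread between these samples alone.

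The B lineage had 4 groups. B cells were B220+ cells from the spleens of mice aged 8 to 10 weeks, and the other groups came from such cells grown for 3 days in medium with LPS at 10 ng/mL plus IL-4 at 2 ng/mL. Those cultures were sorted into blasts (GFP-, CD138-), pre-plasmablasts (prePB; GFP+, CD138-) and plasmablasts (PB; GFP+, CD138+), where GFP reports BLIMP1 and CD138 is a plasma cell surface protein. The culture medium held 2-mercaptoethanol, a reducing agent, listed at 55 mM in the labels, a figure that could not be checked here and may be a slip in the unit. Intestinal epithelium was sorted as reporter-positive EpCAM+ cells at E16.5 and as reporter-negative EpCAM+ cells at P3 and P14, after a dissociation that used 1.5 mM DTT, also a reducing agent. Photoreceptor precursors were sorted as GFP+ at P0, as GFP+CD73- and CD73+ at P4, and as CD73+ at P6 and P10. All of these cells came from C57BL/6 mice that carried EGFP fused to BLIMP1 on both alleles. Day 2 primordial germ cell-like cells (PGCLC), which are induced in culture with BMP4 and other factors, came from a C57BL/6+129 line with the Blimp1-mVenus, stella-ECFP and Rosa26-rtTA alleles and were sorted for the Blimp1 reporter.

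Secreted and membrane proteins enter the ER through a translocation channel, where signal peptides are removed and N-glycans are attached. Chaperones such as BiP and GRP94 hold the chains while they fold, disulfide isomerases form their bonds, and chains that fail are drawn back out and degraded by ERAD. When unfolded chains build up, the sensors IRE1 (Ern1), ATF6 and PERK (Eif2ak3) raise the output of these genes, IRE1 by splicing the Xbp1 mRNA and PERK through the factors ATF4 and CHOP (Ddit3). Plasma cells are a standard example of a cell that enlarges this machinery, since they secrete antibody.

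A known control sequence of this response is the ER stress element (ERSE, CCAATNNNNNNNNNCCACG), with a shorter form, ERSE-II (ATTGGNCCACG), and a further element is the UPRE core (TGACGTGG). The 300-base RefSeq promoter windows (250 bases before to 50 after a start, GRCm38.p6) covered 35 of the 41 members. On either strand, an exact ERSE stood in the windows of 10 of these 35 members (28.6%), against 37 of 27025 genes (0.137%) over all windows. ERSE-II was found in 2 members (Dnajb11 and Herpud1) and in 12 of all genes (0.0444%), and no member window held the UPRE core, which 193 of all genes (0.714%) did. By role, the ERSE was present in 6 of 9 chaperones with a window (Calr, Canx, Creld2, Dnajc3, Hsp90b1 and Hspa5), in Pdia6 and Ero1lb of oxidative folding, in Derl3 and Syvn1 of ERAD, and in 0 of 8 entry and glycosylation genes. The ERSE was defined on promoters of ER chaperone genes, so its presence there is no independent finding. The 7 windows printed here are of members whose levels are described below, with ERSE or ERSE-II matches in capitals and the sequence read 5′ to 3′ on the gene's strand.
Hspa5 (chr2:34771840-34772139, plus strand): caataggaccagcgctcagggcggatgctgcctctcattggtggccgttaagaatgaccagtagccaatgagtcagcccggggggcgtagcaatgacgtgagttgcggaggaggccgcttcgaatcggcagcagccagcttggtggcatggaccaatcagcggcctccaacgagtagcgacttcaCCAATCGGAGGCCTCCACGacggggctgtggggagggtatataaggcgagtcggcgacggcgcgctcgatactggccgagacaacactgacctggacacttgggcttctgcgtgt
Hsp90b1 (chr10:86705395-86705694, minus strand): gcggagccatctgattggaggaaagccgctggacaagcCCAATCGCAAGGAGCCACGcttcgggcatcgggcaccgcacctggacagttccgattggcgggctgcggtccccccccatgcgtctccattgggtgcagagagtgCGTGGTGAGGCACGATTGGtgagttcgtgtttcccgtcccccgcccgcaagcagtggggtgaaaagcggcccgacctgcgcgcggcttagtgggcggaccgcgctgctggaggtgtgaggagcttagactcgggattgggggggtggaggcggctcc
Pdia6 (chr12:17266339-17266638, plus strand): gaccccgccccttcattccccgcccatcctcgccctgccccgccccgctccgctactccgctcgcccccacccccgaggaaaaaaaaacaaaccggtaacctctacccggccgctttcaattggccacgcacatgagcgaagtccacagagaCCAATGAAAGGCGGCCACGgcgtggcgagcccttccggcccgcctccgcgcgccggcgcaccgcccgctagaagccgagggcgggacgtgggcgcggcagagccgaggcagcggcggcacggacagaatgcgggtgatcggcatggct
Canx (chr11:50325624-50325923, minus strand): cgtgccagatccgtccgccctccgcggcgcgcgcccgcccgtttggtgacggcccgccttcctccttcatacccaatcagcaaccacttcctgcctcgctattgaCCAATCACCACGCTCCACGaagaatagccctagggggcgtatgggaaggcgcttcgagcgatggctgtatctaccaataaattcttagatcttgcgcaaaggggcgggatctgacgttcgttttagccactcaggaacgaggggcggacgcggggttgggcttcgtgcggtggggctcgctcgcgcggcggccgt
Ero1lb (chr13:12565633-12565932, plus strand): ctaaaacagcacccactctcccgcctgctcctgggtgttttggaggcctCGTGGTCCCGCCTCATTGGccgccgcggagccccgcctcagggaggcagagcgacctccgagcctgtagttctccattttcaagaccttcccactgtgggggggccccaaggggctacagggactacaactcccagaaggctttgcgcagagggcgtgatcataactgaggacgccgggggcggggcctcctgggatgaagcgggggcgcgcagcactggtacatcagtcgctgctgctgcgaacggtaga
Derl3 (chr10:75893148-75893447, plus strand): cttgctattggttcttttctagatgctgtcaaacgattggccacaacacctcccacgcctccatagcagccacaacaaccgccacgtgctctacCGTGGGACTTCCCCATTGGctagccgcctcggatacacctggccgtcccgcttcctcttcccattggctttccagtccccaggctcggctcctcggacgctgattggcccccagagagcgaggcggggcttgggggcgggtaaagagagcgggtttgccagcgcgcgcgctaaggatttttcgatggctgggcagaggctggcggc
Herpud1 (chr8:94386179-94386478, plus strand): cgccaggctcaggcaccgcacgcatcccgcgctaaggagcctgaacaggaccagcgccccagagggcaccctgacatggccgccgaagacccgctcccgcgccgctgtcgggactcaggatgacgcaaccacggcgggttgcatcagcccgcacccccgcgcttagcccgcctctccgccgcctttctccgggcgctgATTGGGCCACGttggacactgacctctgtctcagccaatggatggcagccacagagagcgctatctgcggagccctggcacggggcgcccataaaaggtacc
Hsp90b1 alone among the members held 2 ERSE matches, at -212 to -194 and -107 to -89 with the start base counted as 0. The match of Hspa5 lay at -65 to -47. A match is a run of letters and not a measured binding site. From blasts to PB, 9 of 10 members with an ERSE rose with a median log2 difference of 1.80, and 20 of 25 members with a window but no ERSE rose with a median of 1.396. All 6 members without a window rose too, with a median of 1.67. Of the 27 other genes with an ERSE, 4 could be tested in the B lineage, and their median of -0.56 was near the -0.64 of other genes with a window and no ERSE, of which 6.34% rose.

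Levels are in RPM, which are reads scaled to the total of the library. Because the libraries hold the 3' ends of transcripts, levels are compared between groups for one gene or one list and not between genes. Differences are between groups in log2(RPM + 1), given ± the standard error of the limma fit; its p-values carry a Benjamini-Hochberg adjustment over all genes tested. A gene is said to have risen or fallen when its adjusted p was under 0.05 and its difference was at least 1 on the log2 scale. In sorted bulk RNA, fewer cells that express a gene and less RNA per cell cannot be told apart. Depth ran from 1.72 to 6.04 M reads, so that 1 read was worth 0.583 to 0.166 RPM. The lines used here summed to 688942 and 650799 RPM in PB and 864611 and 827448 in prePB, against 960060.5 and 954939 in blasts, so that the genes kept held a smaller share of reads in PB. Summed B cell and intestinal markers were highest in the groups of their label, while plasmablast markers were mixed. The joining chain gene Igj was highest in PB, at 13441 and 12805 RPM. Irf4 and Tnfrsf17 in PB overlapped with another B-lineage group. Sdc1, which encodes CD138, was 9.92 and 9.14 RPM in PB and 14.3 and 14.8 in intestine at P3. Prdm1, which encodes BLIMP1, was 181 and 242 RPM in PB and 486 and 481 in photoreceptor precursors at P0. The summed level of 5 B cell markers was 1925 to 9955 RPM in the B lineage and at most 16.9 RPM in PGCLC and intestine. That of 6 intestinal markers was 3330 to 5244 RPM in intestine, 518 to 551 RPM in PGCLC and at most 20.6 RPM in the B lineage. The median of all genes lay away from 0 in the comparisons with PB: it was -0.64 from blasts to PB, and -0.05 when libraries were scaled by their median ratio.

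The members were highest in PB. The summed level of all 41 was 5123 and 4357 RPM in B cells, 6336 and 7612 in blasts, 15980.3 and 16634 in prePB, and 24512 and 23309 in PB. Group means were ranked for the members alone and not for all genes. PB had the highest mean of the 13 groups for 34 of 41 members, and no member was lowest there. The exceptions were Herpud1 and Ssr1 (highest in prePB), Canx (blasts), P4hb and Derl2 (intestine at E16.5), Atf4 (P6 photoreceptor precursors) and Ddit3 (P10 photoreceptor precursors). A stricter test asked whether PB exceeded each of the 12 other groups with a difference of at least 1. It was passed by 0.134% of all genes and by 4 members, which were the ERAD genes Edem1, Edem2, Sel1l and Edem3. Edem3 passed narrowly (limma adjusted p = 0.0484) and was lost without any one of many libraries. Without prePB replicate 1, prePB replicate 2 or PB replicate 1, 2 members passed; with median-ratio scaling 12 did.

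**Figure D1:**
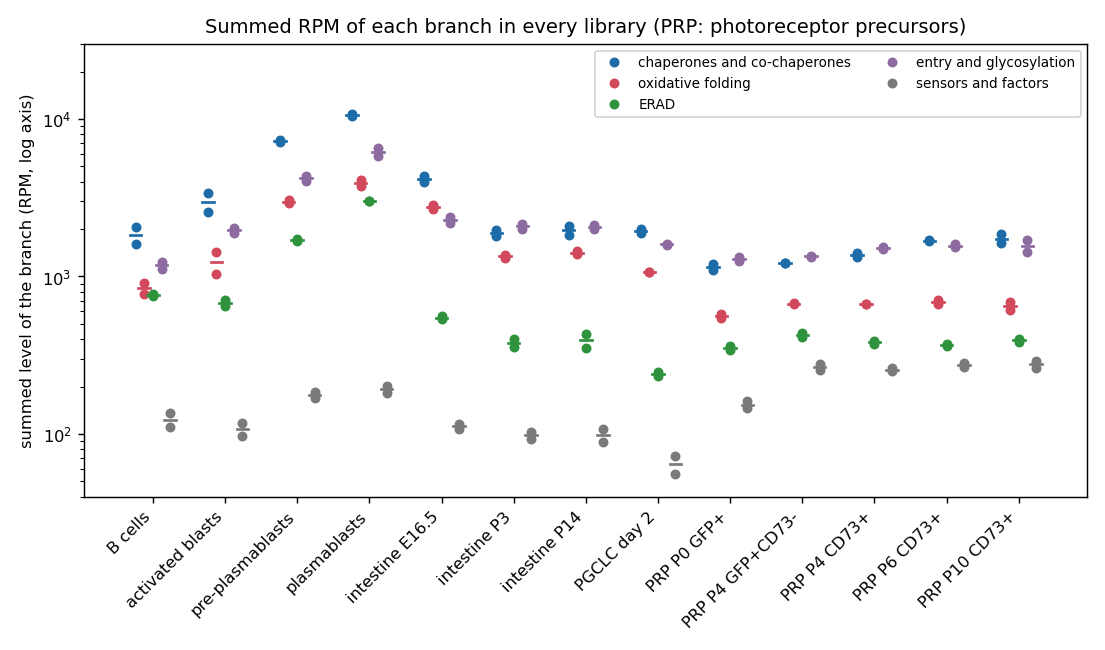
Summed RPM of each branch (log axis) in both libraries of every group, with points for libraries and short lines for means. In every branch except the sensors and factors, both PB libraries lay above all other libraries, at 3012 RPM in each library for ERAD; the sensors and factors were higher in photoreceptor precursors from P4 on (249.7 to 290.1 RPM) than in PB (202 and 181 RPM).

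From B cells to blasts, calls went in both directions. Of the 41 members, 7 rose and 4 fell, against 12.3% and 21.8% of all genes tested. Of all called genes, 36.2% rose, and 51.0% did after quantile normalization. Those that rose served folding and entry. Of the 4 that fell, 3 were among the 9 ERAD genes, beside the 21.8% of all genes that fell. With median-ratio scaling 9 rose and 2 fell, the falls being Ero1lb and Edem2. No test compared the branches with each other. The median difference was 0.78 for chaperones, 0.54 for oxidative folding and 0.81 for entry and glycosylation, but -0.46 for ERAD, beside -0.18 for all genes. The summed ERAD level was 770.2 and 749 RPM in B cells and 705 and 651 in blasts, while the summed chaperone level went from 2073 and 1601 RPM to 2576 and 3379.

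Sdf2l1, a co-chaperone found with BiP, stood at 16.6 and 15.7 RPM in the B cells and at 66.0 and 84.7 RPM in the blasts. It rose by 2.15 ± 0.20 (limma adjusted p = 8.46e-07). Canx encodes calnexin, the membrane lectin that holds glycoproteins while they fold; it measured 118 and 124 RPM in B cells and 361 and 466 in blasts. Neither gene overlapped between the groups, and Canx rose by 1.76 ± 0.17 (limma adjusted p = 1.31e-06). The other chaperones that rose were Hyou1, a large Hsp70-like chaperone (1.35 ± 0.29), and Manf, a secreted ER stress factor (1.19 ± 0.21), the latter only 0.84 without blast replicate 2. Ssr3, a subunit of the translocon-associated complex, went from 97.6 and 103 RPM to 319 and 339 and rose by 1.70 ± 0.15. Among the disulfide isomerases, Pdia3 rose by 1.41 ± 0.21 and Pdia6 by 1.05 ± 0.22, Pdia6 falling short of the threshold without B cell replicate 2 (0.84) or blast replicate 2 (0.71).

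Ero1lb moved the other way. It encodes ERO1-beta, an oxidase that recharges the disulfide isomerases, and read 170.1 and 161 RPM in B cells but 35.8 and 24.6 RPM in blasts, a fall of -2.44 ± 0.18 (limma adjusted p = 1.15e-07). Its relative Ero1l went from 23.0 and 19.7 RPM to 39.1 and 35.0, a difference of 0.77 that did not reach the threshold. In ERAD, 3 genes fell: Edem2 (-1.23 ± 0.20), Edem3 (-1.08 ± 0.20) and Syvn1 (-1.04 ± 0.18). EDEM2 and EDEM3 trim mannose from glycoproteins that will be degraded, and SYVN1 (HRD1) is the ubiquitin ligase of the main ERAD complex. Syvn1 read 118 and 114 RPM in B cells and 57.4 and 54.3 in blasts, with no overlap. The Edem3 and Syvn1 calls rest near the threshold: with median-ratio scaling they were -0.93 and -0.90, and Edem3 was -0.97 without blast replicate 2.

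The ER chaperone genes Hspa5 and Hsp90b1 were not called at this step. Hspa5, which encodes BiP, measured 614 and 412 RPM in B cells and 755 and 891 in blasts, a difference of 0.70 ± 0.19 that was below the fold threshold. Hsp90b1, which encodes GRP94, measured 719 and 536 RPM and then 573 and 804, and its libraries overlapped (0.13 ± 0.20, limma adjusted p = 0.626). None of the 4 sensors and factors was called: the differences were 0.17 for Atf4, -0.20 for Atf6, -0.98 for Ern1 and -0.99 for Ddit3.

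The B cell libraries also held other cells' transcripts. The summed level of 12 T, NK and myeloid markers was 361 to 467 RPM in B cells and 5.95 to 27.6 RPM in the other 3 groups. The joining chain gene Igj (Jchain), a plasma cell product, was 1825 and 1692 RPM in B cells and 15.0 and 4.62 RPM in blasts, and Sdc1 (CD138) was 4.65 and 2.41 RPM and then 0 in both. Their part in the B cell levels of Ero1lb and the ERAD genes was not tested.

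From blasts to prePB, genes of every branch rose. Of the 41 members, 25 rose and 0 fell, against 4.43% and 5.83% of all genes, and the median difference was 1.07 for members and -0.24 for all genes. The share of called genes that rose was 43.2%, or 63.1% with median-ratio scaling, under which 31 members rose. The count was 7 of 11 for chaperones, 5 of 7 for oxidative folding, 7 of 9 for ERAD, 5 of 10 for entry and glycosylation and 1 of 4 for sensors and factors. Genes that had been lower in blasts than in B cells were among those with the largest rises. Both steps use the same blast libraries, so a low blast value lowers the first difference and raises the second. The same holds for the other lists below.

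Ero1lb returned to 210.3 and 217 RPM, a rise of 2.81 ± 0.18 (limma adjusted p = 1.63e-07). In the ERAD branch, Derl3 went from 27.7 and 26.9 RPM in blasts to 178 and 156 in prePB, and rose by 2.57 ± 0.17. Derl3 encodes Derlin-3, a membrane protein that helps chains leave the ER. Edem1, a further mannosidase-like ERAD factor, went from 90.9 and 104 RPM to 475 and 528 and rose by 2.35 ± 0.15. The rises of Edem3 (1.97), Edem2 (1.69), Sel1l (1.39), Derl1 (1.12) and Syvn1 (1.02) followed, and SEL1L is the partner of SYVN1. Sel1l, Derl1 and Syvn1 were not followed when single libraries were left out, and Derl1 and Syvn1 lay near the threshold. Herpud1 (0.60), which encodes an ERAD scaffold, and Derl2 (0.17) were not called.

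Among the chaperones, Dnajb9 (ERdj4), a BiP co-chaperone, showed the greatest rise. It read 29.7 and 29.2 RPM in blasts and 120.0 and 131 in prePB (2.05 ± 0.16, limma adjusted p = 1.19e-06). Hsp90b1 went from 573 and 804 RPM to 2678 and 2699 and rose by 1.98 ± 0.20. Hspa5 went from 755 and 891 RPM to 1786 and 1706 and rose by 1.09 ± 0.19, though by 0.97 without blast replicate 1. For both genes the blast libraries lay well below the prePB libraries. Creld2, a folding factor of the ER lumen, rose by 1.62 ± 0.25 and Manf by 1.41 ± 0.21. Calnexin did not rise with the rest and measured 289 and 355 RPM in prePB. Its difference of -0.36 ± 0.17 was not called and lay near the median of -0.24 for all genes.

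Entry genes with the largest rises were Ssr2 (1.79 ± 0.16), another translocon-associated subunit, and Spcs1 (1.49 ± 0.16), a subunit of the signal peptidase. Ssr2 went from 136 and 168 RPM to 532 and 522. Rpn1 (1.20 ± 0.17) and Ddost (1.07 ± 0.17), both subunits of the oligosaccharyltransferase that attaches N-glycans, also rose, Ddost by 0.95 without blast replicate 1. In oxidative folding, Pdia6 (1.402), Pdia4 (1.13) and Dnajc10 (1.03), a disulfide reductase with a J domain, rose with Ero1lb, as did Ero1l (1.00). Ero1l lay at the threshold and was not followed when single libraries were left out. Pdia4 fell short without blast replicate 1 (0.86) or prePB replicate 2 (0.89), and Dnajc10 without blast replicate 2 (0.91) or prePB replicate 2 (0.99).

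The sensors differed from one another. Ern1 measured 1.78 and 2.89 RPM in blasts and 13.7 and 12.9 in prePB and rose by 2.12 ± 0.37 (limma adjusted p = 0.00103); the blast values rest on 7 and 10 reads. Atf6 read 37.3 and 32.7 RPM and then 68.1 and 68.3, a difference of 0.95 ± 0.19 that missed the fold threshold; it was 1.16 with median-ratio scaling and 1.04 without blast replicate 1. Atf4 (0.40 ± 0.18) and Ddit3 (0.76 ± 0.37) were not called. The blast libraries of Ddit3 differed, at 22.3 and 8.38 RPM, and its difference was 1.42 without blast replicate 1.

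**Figure D2:**
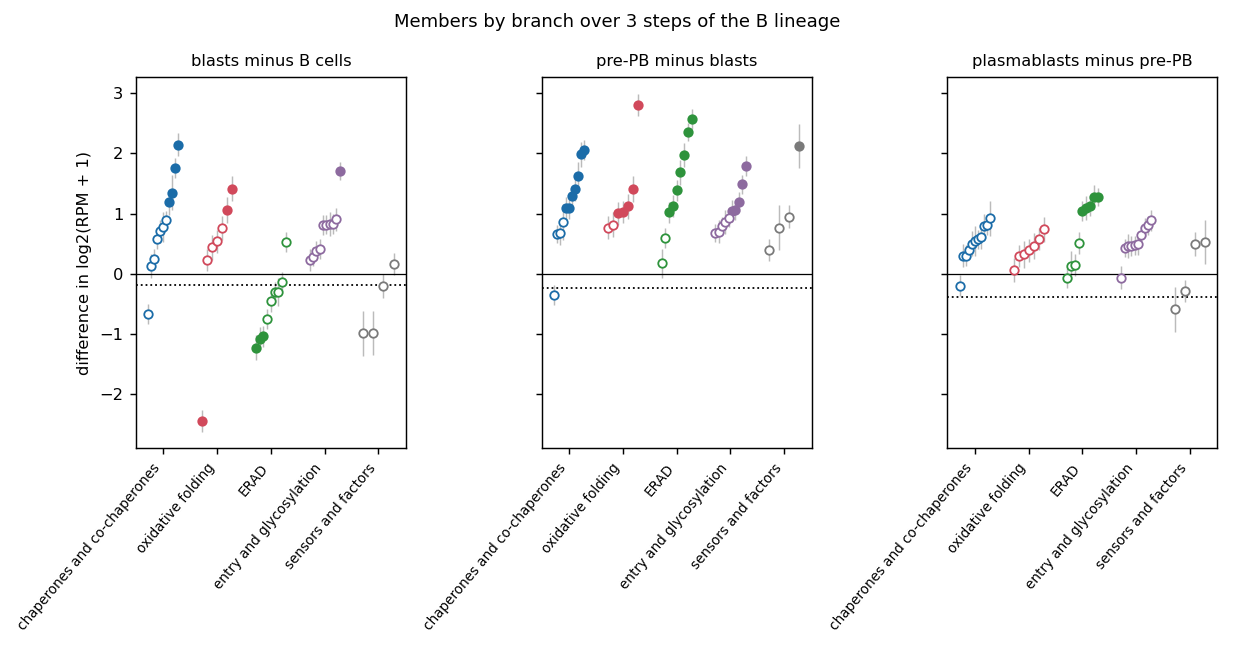
Difference in log2(RPM + 1) of each member at 3 successive steps of the B lineage, by branch; filled points were called, error bars are standard errors, and the dotted line is the median of all genes tested. ERAD points lie mostly below 0 in the first step (median -0.46), rise in the second (1.39), and hold all 5 filled points of the third.

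From prePB to PB, only ERAD genes passed. The 5 members that rose were Edem1, Edem2, Sel1l, Edem3 and Derl3, all of the 9-gene ERAD branch, and 0 fell, against 1.26% and 11.7% of all genes. The median difference was 1.04 for ERAD, 0.55 for chaperones, 0.48 for entry and glycosylation and 0.39 for oxidative folding, beside -0.39 for all genes. The count depends on scaling: with median-ratio scaling 16 members rose and with quantile normalization 12, these 5 among them each time. Of all genes tested, 124 rose as deposited, 389 with median-ratio scaling and 318 with quantile normalization. Of all called genes, 9.68% rose, or 48.4% with median-ratio scaling.

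Edem1 reached 1215 RPM in each PB library, against 475 and 528 in prePB, a rise of 1.28 ± 0.15 (limma adjusted p = 6.93e-05). Edem2 went from 76.0 and 54.6 RPM to 175 and 142 (1.27 ± 0.20), and Sel1l from 177 and 186 RPM to 383 and 415 (1.13 ± 0.17). Edem3 went from 59.2 and 57.0 RPM to 133 and 117 (1.09 ± 0.20), and Derl3 from 178 and 156 RPM to 360.4 and 328 (1.04 ± 0.17). In each of the 5, both PB libraries were above both prePB libraries. Edem3 fell to just under the threshold without PB replicate 1. Derl3, the smallest of the 5 rises and near the threshold, was not followed when single libraries were left out.

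Other members were not called at this step. Hsp90b1 went from 2678 and 2699 RPM to 4809.6 and 4481, with no overlap, and its difference of 0.79 ± 0.20 (limma adjusted p = 0.0110) was below the fold threshold, though it was 1.23 with median-ratio scaling. Hspa5 went from 1786 and 1706 RPM to 2172 and 2127 (0.30 ± 0.19). Atf6 (0.49), Ern1 (0.53), Atf4 (-0.29) and Ddit3 (-0.59) were not called, and Atf4 was 0.15 with median-ratio scaling. Herpud1, at 429 and 503 RPM in prePB and 405 and 482 in PB, overlapped between the groups.

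**Figure D3:**
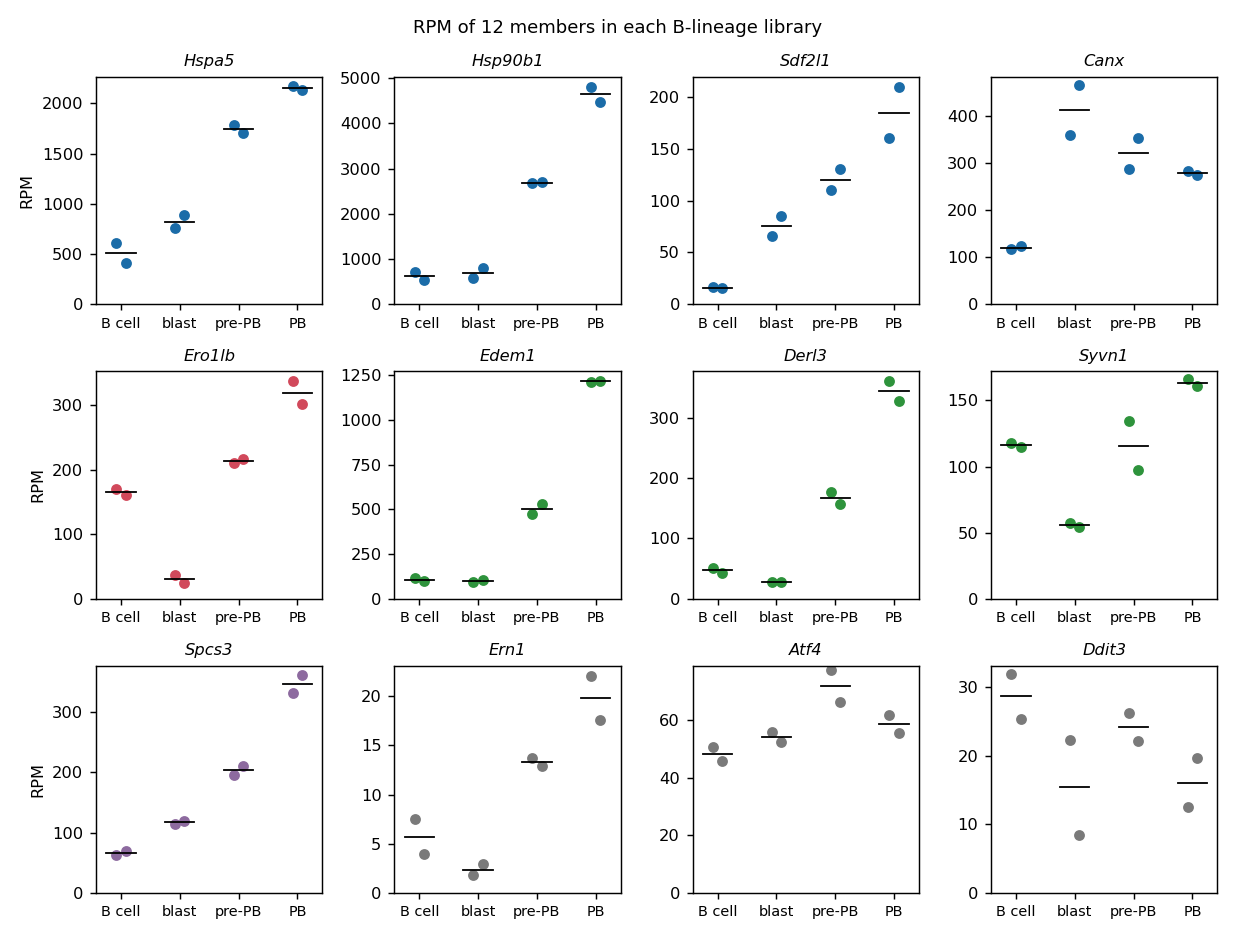
RPM of 12 members in each B-lineage library (points; lines are means of 2), each panel on its own axis from 0. Ero1lb, Derl3 and Syvn1 dip in blasts before they rise, Canx peaks in blasts (361 and 466 RPM), and Atf4 and Ddit3 show no rise to PB.

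Over the whole path from blasts to PB, 35 members rose and 0 fell, against 6.66% and 30.9% of all genes; the median was 1.53 for members and -0.64 for all genes. Among called genes 17.7% rose, or 52.9% with median-ratio scaling, under which 37 members rose. The largest rises in each branch were 3.63 for Edem1 and 3.61 for Derl3 in ERAD, 3.38 for Ero1lb in oxidative folding, 2.86 for Dnajb9 and 2.77 for Hsp90b1 among chaperones, and 2.43 for Ssr2 in entry. Ern1 rose by 2.66 ± 0.37 and Atf6 by 1.44 ± 0.19, and Hspa5 by 1.39 ± 0.19. The 6 members that were not called were Canx (-0.55), Atf4 (0.11), Ddit3 (0.17), Derl2 (0.31), Herpud1 (0.53) and Ssr1 (0.63). Ddit3 had no stable sign, and was -0.13 without PB replicate 2 and -0.48 without blast replicate 2.

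Measured against B cells, 35 members rose in PB and 0 fell, against 7.2% and 40.5% of all genes. Of all called genes, 15.1% rose, or 51.1% after quantile normalization; 39 members rose with median-ratio scaling. All 11 chaperones and all 10 entry and glycosylation genes rose, with medians of 2.19 and 2.37. The leaders were Sdf2l1 (3.43), Hyou1 (3.13) and Manf (3.10) among chaperones, Ssr3 (2.81) and Ssr2 (2.71) in entry, Pdia6 (2.78) in oxidative folding and Edem1 (3.50) in ERAD. Hspa5 rose by 2.09, Hsp90b1 by 2.90, Atf6 by 1.24 and Ern1 by 1.67. Not called were Ero1lb (0.94), Derl1 (0.81), Syvn1 (0.49), Derl2 (-0.00), Atf4 (0.28) and Ddit3 (-0.82). All of these 6 but Atf4 were lower in both blast libraries than in both B cell libraries. Atf4 passed with both scalings (1.06 by median ratio).

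Genes of the same pathway outside the set were put on lists by function. Earlier results of these data were known at that time, so the counts of these lists are descriptive and no independent support. Of 12 regulators of the response, 11 could be tested in the B lineage: 5 fell from B cells to blasts, against 21.8% of all genes, and 5 rose from blasts to prePB, against 4.43%. Xbp1, the factor spliced by IRE1, was 238 and 197 RPM in B cells, 180.2 and 197 in blasts, 802 and 911 in prePB and 1843 and 1798 in PB. It rose by 2.17 ± 0.16 from blasts to prePB and by 1.09 ± 0.16 from prePB to PB, the sole regulator called there, and it was called against all 12 other groups. These libraries count 3' ends and do not show splicing. Bhlha15 (MIST1), a factor of secretory cells, rose by 4.25 from blasts to prePB, Creb3l2, an ER-bound factor, by 3.45, and Wfs1, an ER membrane protein, by 2.36. All 3 had fallen from B cells to blasts, by -1.61, -2.06 and -2.17, as had Eif2ak3 (-1.71), which encodes PERK. The changes of these 3 rest on low blast values. Blasts held Bhlha15 at 6.09 and 2.02 RPM, Creb3l2 at 1.78 and 4.91, and Wfs1 at 1.27 and 1.44.

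Genes known as targets of ATF4 and CHOP took another course. Of 14 tested, 11 rose and 0 fell from B cells to blasts, against 12.3% and 21.8% of all genes, with a median of 1.90 beside -0.18, led by Asns, asparagine synthetase (3.74), Atf3, a stress factor (3.38), and Sesn2, a stress-induced regulator of growth signalling (2.99). From blasts to prePB 1 rose (Chac1, 1.84) and 0 fell, against 4.43% and 5.83% of all genes. At the step to PB, 3 fell and 0 rose (11.7% and 1.26% of all genes), namely Atf3 (-2.66), Trib3 (-2.20) and Sesn2 (-1.22). Some of these values lie near the floor. Atf3 was 0.606 and 0.482 RPM in B cells and 0 and 0.937 in PB, and Trib3 was 2.55 and 0.703 RPM in PB. Asns stood at 7.88 and 9.39 RPM in B cells, 168 and 97.1 in blasts and 119.6 and 97.7 in PB. Atf4 itself was not called at any of these steps.

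Of 22 other folding genes, 18 could be tested. From B cells to blasts 1 rose, against 12.3% of all genes, and 4 fell, a share near the 21.8% of all genes. From blasts to prePB 5 rose, against 4.43% of all genes, and from prePB to PB 4 rose, against 1.26%. Fkbp11, a prolyl isomerase, and Txndc5, a disulfide isomerase, led at the second step (3.28 each) and rose again at the third (1.65 and 1.34), and both had fallen at the first (-1.32 and -2.17). In 17 other ERAD genes and 24 other glycosylation genes tested, the shares of all genes that rose are likewise 4.43% to prePB and 1.26% to PB. Of the ERAD genes, 2 rose from blasts to prePB, Ube2j1, an ER ubiquitin-conjugating enzyme (1.48), and Os9, a lectin of the HRD1 complex (1.32), and 1 rose from prePB to PB (Man1b1, 1.18). Of the glycosylation genes, 3 rose from blasts to prePB: Lman1, a cargo receptor (1.61), Krtcap2 (1.13) and Ostc (1.06), both oligosaccharyltransferase subunits. From prePB to PB the median of the 24 was 0.25.

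In intestinal epithelium, summed chaperone levels were highest at E16.5. From E16.5 to P3, 10 of 40 members tested fell and 1 rose, against 8.2% and 12.6% of all genes; Derl3 was too low to test. The median was -0.60 for members and 0.11 for all genes. Of all called genes, 60.6% rose, or 49.6% after quantile normalization. By branch, 6 of 11 chaperones fell (median -1.06), as did 2 of 7 oxidative folding genes (median -0.85), 1 of 8 ERAD genes tested (Sel1l) and 1 of 4 sensors and factors (Ddit3). No entry or glycosylation gene was called (median -0.11). The summed chaperone level was 3984 and 4345 RPM at E16.5, 1804 and 1960.3 at P3, and 1829 and 2093 at P14.

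Hspa5 measured 1489 and 1561 RPM at E16.5 and 582 and 594 at P3, a fall of -1.37 ± 0.13 (limma adjusted p = 1.43e-08). Hsp90b1 went from 928 and 1111 RPM to 402 and 464 and fell by -1.23 ± 0.14. Sdf2l1 (-1.39 ± 0.33) and Dnajb11, a BiP co-chaperone (-1.15 ± 0.17), also fell. The E16.5 and P3 libraries of these 4 genes did not overlap, though Sdf2l1 had an adjusted p of 0.0582 in limma with no filter on low genes. P4hb, the classical protein disulfide isomerase, had its highest level of all groups at E16.5 (1716 and 1768 RPM) and fell by -1.18 ± 0.13 to 759 and 782 RPM. Ero1l fell by -1.45 ± 0.23, from 61.2 and 77.8 RPM to 24.2 and 24.9.

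Outside the folding branches, Sel1l fell by -1.03 ± 0.18 and Ddit3 by -1.04 ± 0.26, both near the threshold. Sel1l was -0.87 without E16.5 replicate 2, and Ddit3 was -0.96 without E16.5 replicate 1 and -0.74 without P3 replicate 2. Dnajc10 was the only member that rose (1.01 ± 0.22), from 20.0 and 23.2 RPM to 43.9 and 44.8, and it missed the threshold with both scalings (0.89 and 0.88), without E16.5 replicate 1 (0.91) and without P3 replicate 2 (1.00). Xbp1 was level, at 195 and 169 RPM and then 177 and 161 (-0.11 ± 0.15). From P3 to P14, 0 of 40 members were called by limma, against 1.99% of all genes that rose and 2.4% that fell, and 0 had an unadjusted p under 0.05. Without P14 replicate 2, Edem3 (-1.38) and Sdf2l1 (-1.22) fell. Hspa5 stood at 624 and 701 RPM and P4hb at 795 and 820.4 at P14.

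Age and sorting gate changed together between E16.5 and P3 and cannot be told apart. The summed level of 8 goblet cell markers was 434 to 461 RPM at E16.5, 2704 to 2891 at P3 and 4053 to 5301 at P14. That of 5 Paneth cell markers was 48.7 to 58.9, 1671 to 2050 and 2792 to 3858 RPM, and that of 8 enteroendocrine markers 63.3 to 94.3, 5353 to 7803 and 1590.4 to 3039 RPM. All 8 goblet, 4 of 5 Paneth and all 8 enteroendocrine markers were above 0 in both E16.5 libraries. Their part in the members' levels was not tested.

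**Figure D4:**
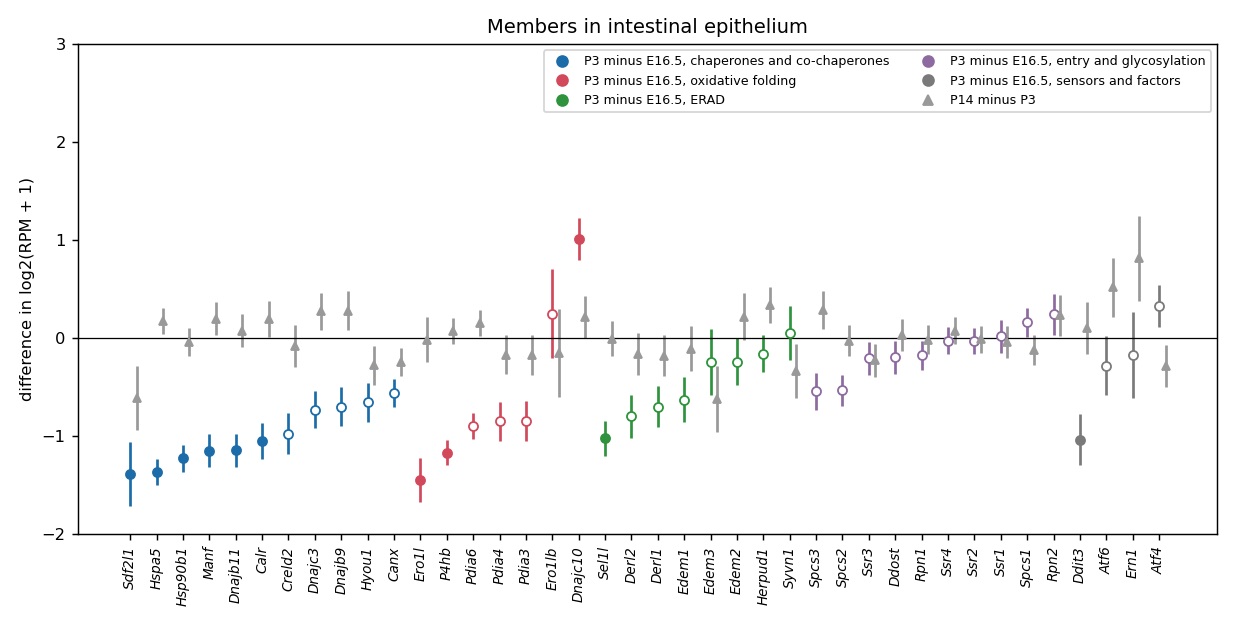
Difference in log2(RPM + 1) of the 40 members tested in intestinal epithelium, by branch: circles for P3 minus E16.5 (filled where called), grey triangles for P14 minus P3, bars are standard errors. Chaperones and most oxidative folding genes lie below 0 in the first step, entry genes lie near 0, and no member was called in the second step.

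PGCLC had low levels of many members. The lowest of the 13 group means was in PGCLC for 13 members and in photoreceptor precursors at P0 for 10. All genes were not ranked in this way. The summed level of the members in PGCLC was 4829 and 4979 RPM, against 9502 and 10239.9 in the intestine at E16.5, also reporter-positive. That sum was near the 5123 and 4357 RPM of B cells and above the 3457 and 3560.4 RPM of photoreceptor precursors at P0. Of the 41 members, 17 were lower in PGCLC than in E16.5 intestine and 1 was higher, against 20.3% and 26.5% of all genes, with a median of -0.75 beside 0.16. By branch, 8 of 11 chaperones, 4 of 7 oxidative folding genes, 3 of 9 ERAD genes and 1 of 10 entry genes were lower. Strain, reporter and culture differ between these groups as well.

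Sdf2l1 was close to absent in PGCLC, with 1 and 2 reads (0.583 and 0.741 RPM), against 43.5 and 41.4 RPM in E16.5 intestine. The ratio was 62.3, with a 95% exact interval of 21.1 to 304 that covers counting error only. Pdia4 measured 4.08 and 15.6 RPM in PGCLC and 76.9 and 107 in E16.5 intestine, a difference of -3.32 ± 0.32 (limma adjusted p = 6.45e-09). P4hb (-2.38), Herpud1 (-2.21), Ero1l (-2.05), Ddit3 (-2.03) and Dnajb9 (-1.98) were lower too, as was Hspa5 (-1.50 ± 0.14), at 504 and 576 RPM. Dnajc10 was the only member higher in PGCLC, at 108 and 113 RPM against 20.0 and 23.2 (2.31 ± 0.15). Xbp1 was 10.5 and 17.4 RPM in PGCLC, -3.65 ± 0.17 from E16.5 intestine.

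Against PB, 35 members were lower in PGCLC and 0 higher, against 10.1% and 43.7% of all genes, with a median of -2.31 beside 0.80. Among called genes 81.3% were higher in PGCLC, or 51.2% after quantile normalization. Among the largest differences were -6.79 for Sdf2l1, which rests on its few PGCLC reads, -6.76 for Ero1lb, at 2.04 and 1.85 RPM in PGCLC, -6.13 for Derl3, at 1.75 and 7.78 RPM, -5.62 for Pdia4 and -5.28 for Edem1. Sdf2l1 was 275 times higher in PB by reads, with a 95% exact interval of 94.0 to 1336. Not called were Canx (-0.13), Dnajc10 (-0.43), P4hb (-0.67), Derl2 (-0.65), Atf4 (-0.63) and Ddit3 (-0.65).

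Atf4 and Ddit3 had their highest levels in photoreceptor precursors. Atf4 was 70.1 and 92.0 RPM at P0, and 128 to 159 RPM in the 8 libraries from P4 to P10, above the 46.0 to 77.5 RPM of the 8 B-lineage libraries. Ddit3 was 34.8 and 34.5 RPM at P0 and 43.9 to 79.0 RPM from P4 to P10, against 8.38 to 31.9 RPM in the B lineage. The 8 later photoreceptor libraries lay above all B-lineage libraries for both genes. From P4 to P10, neighbouring groups in the order of levels overlapped for both genes, and P0 lay below them.

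The change from blasts to PB was then set against the change from E16.5 to P14 in the intestine in a fit of all 26 libraries. The first was greater than the second for 34 of 41 members and smaller for 0, against 9.8% and 29.4% of all genes. The median of this difference of differences was 2.26 for members and -0.47 for all genes. Among called genes 24.97% had the greater change in the B lineage, or 51.1% with median-ratio scaling. It was 4.05 ± 0.22 for Hsp90b1, 4.38 ± 0.37 for Edem1 and 2.59 ± 0.20 for Hspa5. The 7 members that did not pass were Canx (0.26), Ssr1 (0.66), Rpn2 (0.85), Herpud1 (0.36), Dnajc10 (0.11), Atf4 (0.07) and Ddit3 (1.12). Dnajc10 went up in both lineages, by 1.33 from blasts to PB and by 1.22 from E16.5 to P14 in group means. The reporter gate went from negative to positive in the B lineage and from positive to negative in the intestine. Lineage, direction of the gate and age cannot be told apart in this comparison.

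**Figure D5:**
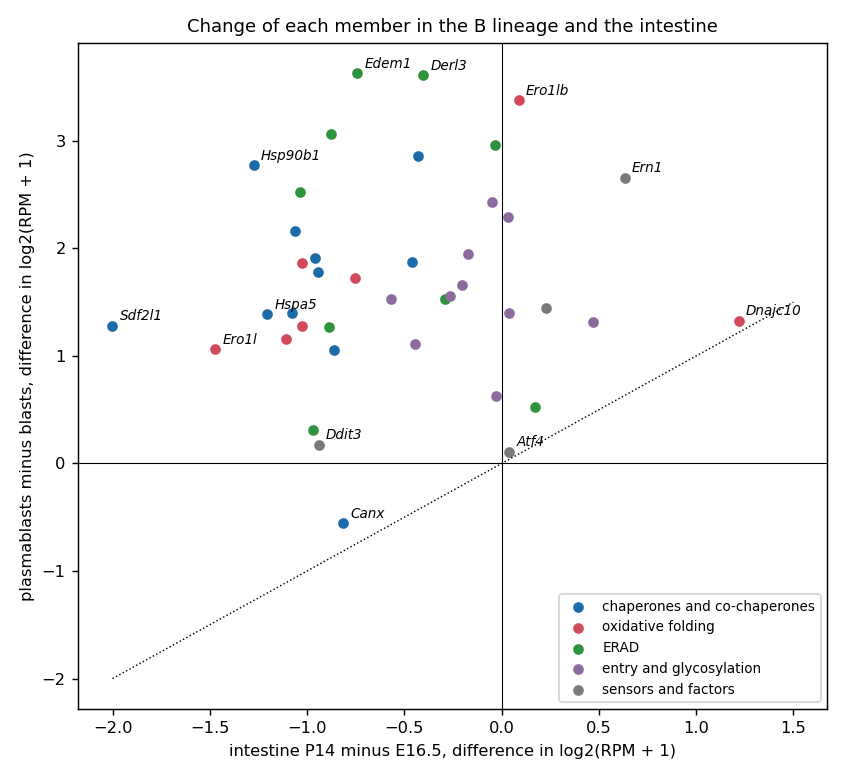
Difference in log2(RPM + 1) of the 41 members between PB and blasts (vertical) and between intestine at P14 and E16.5 (horizontal), 1 point per member from group means of 2 libraries; the dotted line marks equal change. Most members lie above 0 on the vertical axis and at or below 0 on the horizontal one, while Canx is below 0 on both (-0.55 and -0.81) and Dnajc10 lies by the dotted line (1.33 and 1.22).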

How the data were processed

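RNA of 26 libraries in 13 sorted groups was measured by 3' RNA-seq. The authors deposited, per the file headers, 1 expression signal per gene and library in RPM (reads scaled to the library total). The submitters' processing notes list Cufflinks 2.2.0, Bowtie 1.0.1, TopHat 1.4.1 and cutadapt 1.11, with mm10 as the build. The step each served and the use of strand in counting are not given in the sources used here. Of 26310 lines, 25146 with all 26 values were used; the other 1164, which include 92 spike-in lines, lack values under some headers and were left out. Depth was read from the commonest value above 0 and under 1 RPM in a library, taken as 1 read. Between 74.4 and 87.8% of values above 0 per library were within 0.02 of a whole read, so the table was not turned into reads and no count test was run. Reads are given for Sdf2l1 and Ern1 alone, whose values used were whole multiples of 1 read.

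Fits used limma 3.58.1 (limma-trend) in R 4.3.3 on log2(RPM + 1), for genes that reached 5 RPM in 2 or more samples of the fit: 8 samples for the B lineage, 6 for the intestine and all 26 for comparisons across lineages. P-values were two-sided, adjusted by Benjamini-Hochberg over all genes tested; a call needed an adjusted p under 0.05 and a log2 difference of at least 1. Being highest in PB was tested with the largest p of 12 comparisons. Members, branches and other lists were chosen with earlier results of these data known. Named in the text are Hspa5, Hsp90b1, Atf4, Atf6, Ern1, Ddit3 and Xbp1, up to 4 called members per branch, direction and comparison with the largest difference, and up to 3 called genes of each other list; further members were named after their values were seen. In GENCODE, the last 500 bases of 6 members (Hsp90b1, Pdia6, Dnajb11, Syvn1, Manf and Ddit3) overlap a gene on the opposite strand, so reads of the pair may not be told apart. Alternatives were other pseudocounts (0.5 and 5 RPM), filters (none and 20 RPM), median-ratio scaling, quantile normalization, a replicate block, no fold minimum, 1 fit of all samples and leaving out each library. Python 3.11.15 (numpy 2.4.6, pandas 2.3.3, matplotlib 3.10.9) served for tables, motif searches and plots.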

Additional observations from a re-analysis of the deposited data

Results flagged for a closer look

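The change from blasts to PB and the change from E16.5 to P14 in the intestine differed by limma's test of the difference for 34 members, all with the greater change in the B lineage. The values are differences of log2 differences. Among chaperones they were 4.05 for Hsp90b1, 3.29 for Dnajb9, 3.28 for Sdf2l1, 3.23 for Creld2, 2.87 for Manf, 2.72 for Hyou1, 2.59 for Hspa5, 2.47 for Dnajb11, 2.34 for Dnajc3 and 1.92 for Calr. In ERAD they were 4.38 for Edem1, 4.01 for Derl3, 3.94 for Edem3, 3.56 for Sel1l, 2.99 for Edem2, 2.15 for Derl1, 1.82 for Syvn1 and 1.28 for Derl2.

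In oxidative folding they were 3.29 for Ero1lb, 2.90 for Pdia4, 2.54 for Ero1l, 2.47 for Pdia6, 2.30 for Pdia3 and 2.26 for P4hb. In entry and glycosylation they were 2.48 for Ssr2, 2.26 for Spcs1, 2.12 for Ddost, 2.10 for Spcs2, 1.86 for Rpn1, 1.83 for Spcs3, 1.55 for Ssr3 and 1.37 for Ssr4. Of the sensors, Ern1 was at 2.02 and Atf6 at 1.21, the latter 1.00 without E16.5 replicate 2. Derl3 was at most 3.09 RPM in every intestinal library, so its value rests on the B lineage. Lineage, direction of the reporter gate and age cannot be told apart in any of these values.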

How the results depend on the processing

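With no fold minimum, 28 members were called from B cells to blasts, 19 from prePB to PB and 24 from E16.5 to P3. Further, 33 were called between PGCLC and E16.5 intestine, and 11 as highest in PB. The shares of all genes called with no fold minimum are not given here, so these counts have no background. From prePB to PB, 16 were called with median-ratio scaling and 12 with quantile normalization. Rises among all genes at that step grew too, from 124 to 389 and 318. As highest in PB, 12 members were called with median-ratio scaling, for which no share of all genes is given here. Leaving out single libraries gave 10 to 14 calls from B cells to blasts, 23 to 24 from blasts to prePB, 4 to 6 from prePB to PB, 34 to 35 from blasts to PB, 34 to 36 from B cells to PB, 10 to 11 from E16.5 to P3, 0 to 2 from P3 to P14, 16 to 19 and 34 to 35 for PGCLC against E16.5 intestine and PB, 34 to 36 between lineages and 2 to 4 as highest in PB. A group left with 1 library is assumed to vary like the others. Values under alternatives were followed for up to 4 called members per branch, direction and comparison with the largest difference. Hspa5, Hsp90b1 and the sensors and factors were also followed in the B lineage. Further named members, such as Derl3 from prePB to PB, were not. Of these 2101 values, 2016 kept their call and direction, 66 lost the call, 19 gained it and 0 called values reversed. The cause was not tested. Members with few reads, such as Ern1 in blasts and Sdf2l1 in PGCLC, are limited by depth.

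The labels do not say whether same-numbered libraries of different groups share a source, and it was not settled here. For replicate numbers, the correlation of deviations was 0.01 to 0.20 in the B lineage and -0.05 to 0.04 in the intestine. With the replicate block, 3 members were highest in PB in place of 4, Edem3 having an adjusted p of 0.0515 in limma, and the counts of the other comparisons were as without it.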
